A study of Mus musculus with 4 samples.

Results

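Genes that defend cells against oxidants were compared between reconstituted ovaries (rOvaries) of mice given the mTOR inhibitor INK128 and rOvaries of control mice. The set was a list of 35 gene symbols, chosen with earlier results of these data known. It held superoxide dismutases and catalase (4 genes), glutathione peroxidases (5), peroxiredoxins with sulfiredoxin (7) and the thioredoxin and glutaredoxin systems (6). The rest were glutathione synthesis and recycling (4), the NRF2 axis with its classical targets (4), metallothioneins (2) and glutathione transferases (3). All 35 were found among the 54021 gene symbols of the count table. Expression is given as CPM, the count of a gene scaled to a common library size, and testing needed a mean CPM over 10, which 34 members met and Nqo1 did not.

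An rOvary is the graft that forms when primordial germ cells of fetal gonads, reaggregated with the somatic cells of the same gonads, are placed under the kidney capsule of a recipient. Donor cells came from C57BL/6 fetuses carrying actin-GFP, and the recipients of both groups were young, bilaterally ovariectomized G2 Terc-/- females, the second generation without telomerase on a C57BL/6 background. INK128 is an ATP-competitive inhibitor of the mTOR kinase in both of its complexes and was given in drinking water, at 0.75 μM per g body weight by the sample labels, and the study's methods state a different concentration. Control libraries are labelled Control and were from mice without INK128 by the study's methods, although the labels repeat 1 treatment text for all libraries. Grafts were taken 1 month after transplantation, and poly(A) RNA of whole grafts was sequenced in 2 INK128 libraries (replicates 1 and 2) and 2 control libraries (replicates 1 and 3). The sources do not say whether a library pooled grafts or animals, so the tests measure only the spread between these libraries. Comparing the groups asks how the oxidant defence of the graft differed under mTOR inhibition.

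Superoxide dismutases turn superoxide into hydrogen peroxide, which catalase, glutathione peroxidases and peroxiredoxins then remove with electrons from glutathione or thioredoxin. NRF2, the transcription factor encoded by Nfe2l2, is held in the cytoplasm and marked for degradation by KEAP1, and oxidants or electrophiles release it to act at antioxidant response elements of genes for glutathione synthesis, thioredoxin reductase and detoxification. In the ovary, growing follicles and steroid-producing cells form oxidants as a by-product of respiration and steroidogenesis, and glutathione is stored in oocytes.

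Libraries held 19130209 to 23029089 counts, so 3 counts corresponded to 0.127 to 0.161 CPM. The INK128 libraries resembled each other (Pearson r 0.98 of log2 CPM across genes, which are not independent replicates, with 1.0% of genes more than 2-fold apart), whereas the controls were less alike (r 0.806, 13.8%). The summed CPM of 14 oocyte markers was 1370 and 1024 with INK128 and 948 in control replicate 1, but 66.9 in control replicate 3. The 11 steroidogenic markers had sums of 4630, 5906, 1129 and 13430 in the same order of libraries, lowest in control replicate 1 and highest in control replicate 3. Cyp11a1 and Hsd3b1 gave 4032 and 4211 CPM of the last sum. Cyp17a1 (165 CPM) and Insl3 (12.0 CPM) were lower in control replicate 3 than in both INK128 libraries. All 12 granulosa markers were expressed in every library and summed to 6630 and 8320 CPM with INK128 against 4183 and 5603, of which Inha alone made up 4067 and 5893 against 1680 and 2858, while 5 markers had a positive and 7 a negative log2 fold change (median -0.11). Grafts lie on the kidney, and 25 kidney markers summed to 171 and 295 CPM with INK128 and to 1263 and 2268 in the controls. Of the 25, 22 were lower in both INK128 libraries than in either control, beside 34.0% of all tested genes. Slc12a1 had no count in INK128 replicate 2. The 19 macrophage and lymphocyte markers summed to 447 and 408 CPM against 674 and 846, and the 11 smooth muscle and stroma markers to 15937 and 14697 against 9115 and 9464. Endothelial markers (10 genes) gave 660 and 735 against 698 and 916, and the 10 erythroid markers in the table gave 100 and 92.9 against 27.3 and 61.2. The part of these markers in the values of the antioxidant genes was not tested. These are bulk grafts, in which fewer cells of a type and less RNA per cell cannot be told apart.

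Genes were called different when edgeR's quasi-likelihood test gave a Benjamini-Hochberg adjusted p below 0.05 over 11758 tested genes and the fold change exceeded 1.5. With INK128, 2 antioxidant genes rose, Gpx7 and Gpx8, where 3.18% of all tested genes were called higher. Another 2 fell, Gpx3 and Mt2, where 3.19% of all tested genes were called lower. The split depended on the scaling: with library totals in place of TMM factors the calls over all genes went from 374 higher and 375 lower to 290 higher (2.47%) and 580 lower (4.93%). Gpx8 was then no longer called, at a log2 fold change of 0.95 beside 1.07 with TMM factors. Separation of the groups without a threshold was frequent throughout the genome. Both INK128 libraries lay above both controls for 15 members (34.5% of tested genes) and below both for 11 members (34.0%), and the groups overlapped for 9. Fold changes above 1.5 were found for 11 members upward and 4 downward, beside 21.2% and 24.1% of tested genes. The median log2 fold change of the tested members was 0.12, against -0.03 for all tested genes, with 18 members positive and 16 negative and 48.6% of all tested genes positive. The changes thus ran in both directions, and no direction was shared by the set.

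**Figure D1:**
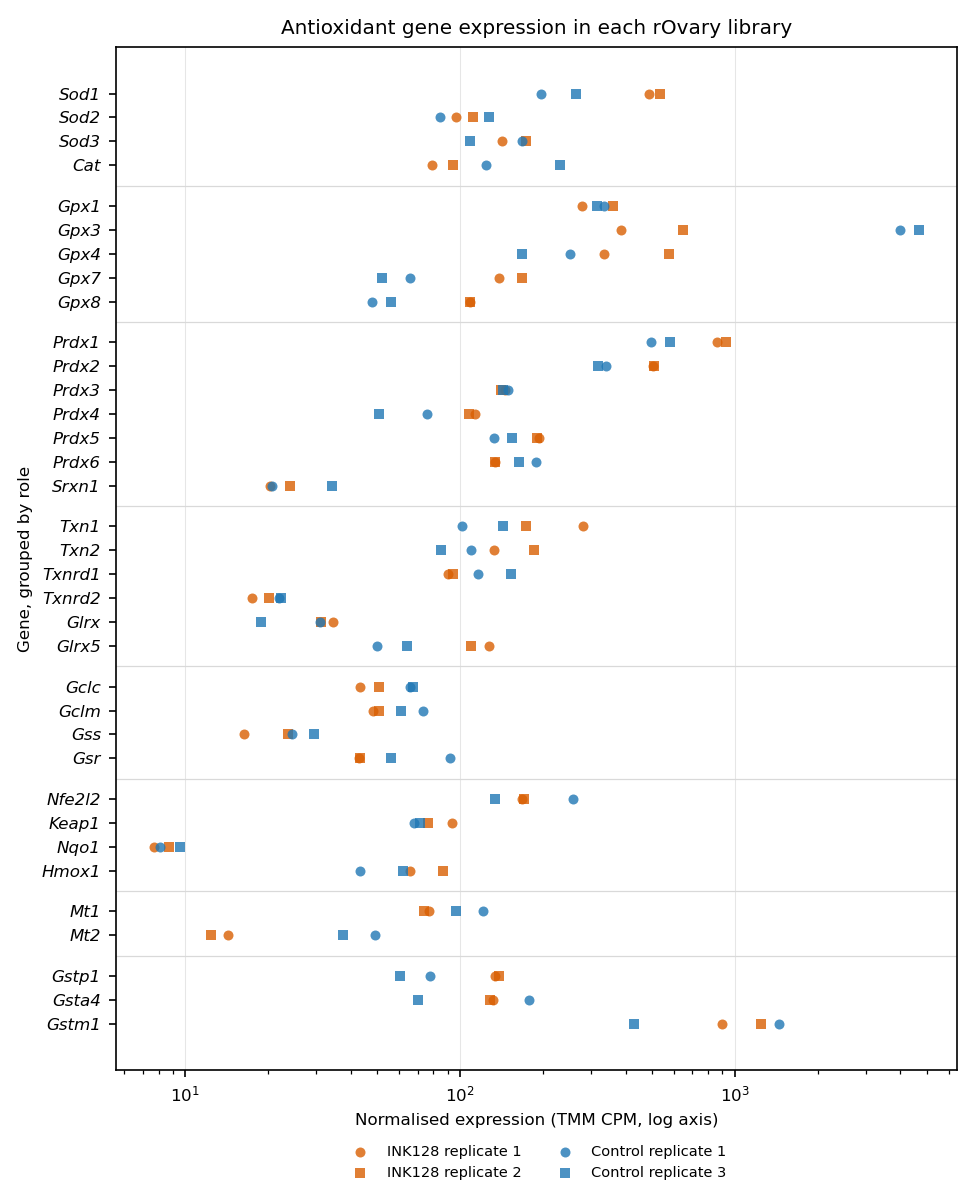
Each point is the TMM-normalised CPM (log axis) of 1 antioxidant gene in 1 library, with INK128 in orange and controls in blue, circles for replicate 1 and squares for replicate 2 or 3, and genes grouped by role. Gpx3 stands at 4002 and 4666 in the controls and at 385 and 647 with INK128, while most other genes lie within a few fold, and Gstm1 shows the widest gap between controls (1450 and 431).

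All adjusted p-values of the calls lay just under the threshold, since the lowest in the whole fit was 0.0464, and 873 further genes had a fold change above 1.5 with an adjusted p between 0.05 and 0.06. Among them were 3 members, Sod1, Glrx5 and Gstp1. DESeq2 on the same genes called 9 members higher (13.6% of all tested genes) and 3 lower (15.1%), which included the 4 called by edgeR. The limit on low counts mattered too. With every gene of at least 1 count in the fit, 6 members were called higher (3.66% of those genes) and 3 lower (6.2%), and with a CPM above 10 required in all 4 libraries 5 were higher (8.0%) and 2 lower (7.14%). The count also depended on single libraries. Without either INK128 library edgeR called no gene at all, where 1525 genes had an unadjusted p below 0.05 without replicate 1 and 1338 without replicate 2. Without control replicate 1 it called 13 members higher and 5 lower, with 22.7% and 23.2% of all tested genes called, and without control replicate 3 it called 9 higher and 5 lower (21.2% and 21.4%).

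Glutathione peroxidases held 3 of the 4 calls. Gpx3 encodes the extracellular, selenium-containing glutathione peroxidase of plasma, which is made above all by proximal tubule cells of the kidney. It lies on chromosome 11 (54902453 to 54910377 on mm10, plus strand). Expression was 385 and 647 CPM with INK128 and 4002 and 4666 CPM in the controls. Every control library was thus several-fold above every INK128 library. The means were 516 ± 186 and 4334 ± 469 CPM (SD, n = 2), so Gpx3 fell 8.40-fold with INK128 (log2 fold change -3.07 ± 0.33 SE, edgeR adjusted p = 0.0464). Leaving out each library in turn gave log2 fold changes of -3.50 to -2.76. Per kb of annotated exon, Gpx3 had the highest value of the 35 genes in the controls, at 2391 CPM per kb. At 285 CPM per kb with INK128 it stood below Gstm1 and Prdx1. The length joins all annotated exons of a gene, so these values do not rank single transcripts. The kidney markers named above were lower with INK128 as well: 22 of the 25 lay below both controls in both INK128 libraries, beside 34.0% of all tested genes, with the summed levels given above. The part of kidney transcripts in the Gpx3 difference was not tested.

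Gpx7 and Gpx8 encode peroxidases of the endoplasmic reticulum that use the peroxide formed during disulphide bond formation. For Gpx7 (chromosome 4, 108400390 to 108406961, minus strand), the INK128 libraries had 139 and 168 CPM and the controls 65.5 and 52.1 CPM. It rose 2.60-fold (means 153 ± 20.4 and 58.8 ± 9.51 CPM, SD, n = 2; log2 fold change 1.38 ± 0.21 SE, edgeR adjusted p = 0.0464). Gpx8 (chromosome 13, 113042753 to 113046410, minus strand) was at 109 CPM in both INK128 libraries and at 47.7 and 56.2 CPM in the controls. The rise was 2.09-fold (109 ± 0.234 and 52.0 ± 6.0 CPM; log2 fold change 1.07 ± 0.18 SE, edgeR adjusted p = 0.0479). Neither gene overlapped between the groups. Both are short transcripts, and with offsets that remove the relation of fold change to exon length, described below, their log2 fold changes came to 0.68 and 0.30, without a call. Of the 11 smooth muscle and stroma markers, 8 were higher in both INK128 libraries than in both controls, beside 34.5% of all tested genes. Of these markers edgeR called Acta2 and Cnn1 higher, beside 3.18% of all tested genes. Their part in the Gpx7 and Gpx8 values was not tested.

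The 2 remaining glutathione peroxidases were not called by edgeR, while DESeq2 called Gpx4 higher. Gpx4, which reduces lipid hydroperoxides and guards against ferroptosis, had 333 and 577 CPM with INK128 and 252 and 168 CPM in the controls. Its groups did not overlap, but both pairs of libraries were far apart (log2 fold change 1.12 ± 0.37 SE, edgeR adjusted p = 0.108). A processed copy, Gpx4-ps2, carried 669 to 1578 counts per library beside 3995 to 12554 for Gpx4, so reads may have been divided between them. Gpx1, the abundant cytosolic enzyme, ranged from 278 to 360 CPM over the 4 libraries with overlapping groups.

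Among the dismutases and catalase, edgeR called no gene, while DESeq2 called Sod1 higher and Cat lower. Sod1, the cytosolic copper and zinc enzyme, reached 488 and 535 CPM with INK128 and 197 and 264 CPM in the controls. The groups were clearly separate and the mean was 2.22-fold higher with INK128, with a log2 fold change of 1.15 ± 0.22 SE (edgeR adjusted p = 0.0516). Cat, the peroxisomal catalase, had 79.1 and 94.6 CPM with INK128 and 124 and 230 CPM in the controls. Both INK128 values lay below both controls, but the controls themselves were 1.85-fold apart (log2 fold change -1.02 ± 0.34 SE, edgeR adjusted p = 0.112). The mitochondrial Sod2 ranged from 84.2 to 127 CPM and the extracellular Sod3 from 109 to 173 CPM, with overlapping groups in both.

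No peroxiredoxin was called by edgeR, while DESeq2 called Prdx1, Prdx2 and Prdx4 higher. Of the 7 genes of this group, 4 were higher in both INK128 libraries than in both controls, beside 34.5% of all tested genes, and 1 was lower, beside 34.0%. Peroxiredoxins reduce peroxides through a reactive cysteine and are recharged by thioredoxin. Prdx1, a cytosolic member and known NRF2 target, had 861 and 925 CPM with INK128 against 496 and 582 CPM, and Prdx2, the other main cytosolic member, had 505 and 506 against 340 and 318 CPM. Replicates of both genes were tight, with log2 fold changes of 0.73 ± 0.19 SE and 0.62 ± 0.17 SE (edgeR adjusted p = 0.0738 and 0.0805). Prdx4, the form of the endoplasmic reticulum, had 113 and 108 CPM against 75.5 and 50.6 CPM (log2 fold change 0.81, adjusted p = 0.0955). Prdx5, found in mitochondria, peroxisomes and cytosol, had 193 and 190 against 133 and 154 CPM (0.42, adjusted p = 0.163, and -0.07 with length offsets). For these 2 genes the INK128 libraries were nearly identical and the spread lay in the controls. Prdx6, which also repairs oxidised phospholipids, was the one peroxiredoxin with both INK128 values (134 and 134 CPM) below both controls (189 and 164 CPM), with a log2 fold change of -0.40 and an edgeR adjusted p of 0.171. The mitochondrial Prdx3 hardly varied, at 141 to 149 CPM over all libraries, and Srxn1, the sulfiredoxin that repairs over-oxidised peroxiredoxins, ranged from 20.3 to 34.1 CPM with overlapping groups. Prdx2 and Prdx5, like Txnrd2 and Keap1 below, share exon bases with genes on the opposite strand, which unstranded reads do not separate.

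Of the 6 thioredoxin and glutaredoxin genes, none passed the edgeR test. Both INK128 libraries lay above both controls for 4 of them (34.5% of all tested genes) and below both for 2 (34.0%). Glrx5, a mitochondrial glutaredoxin needed for iron-sulfur cluster assembly, had 127 and 110 CPM with INK128 and 49.7 and 64.2 CPM in the controls. Its mean was 2.07-fold higher (log2 fold change 1.05 ± 0.21 SE, edgeR adjusted p = 0.0526), which DESeq2 called and edgeR did not. Txn1, the cytosolic thioredoxin, had 281 and 173 against 102 and 143 CPM, and Txn2, its mitochondrial counterpart, had 133 and 185 against 110 and 85.1 CPM. Groups did not overlap for either, but INK128 libraries differed by 1.62-fold and 1.39-fold (log2 fold changes 0.89 and 0.70, edgeR adjusted p = 0.128 and 0.125). With length offsets Txn1 came to 0.12. Glrx, the cytosolic glutaredoxin, was separated only narrowly, with 34.4 and 31.1 against 30.8 and 18.9 CPM. Txnrd1, a reductase that recharges thioredoxin from NADPH, had 90.4 and 94.4 against 116 and 153 CPM (log2 fold change -0.54, edgeR adjusted p = 0.137). Txnrd2, the mitochondrial reductase, had 17.5 and 20.1 against 22.0 and 22.3 CPM (-0.24, adjusted p = 0.482).

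All 4 genes of glutathione synthesis and recycling were lower in both INK128 libraries than in both controls, as were 34.0% of all tested genes, and neither edgeR nor DESeq2 called any of them. Gclc, the catalytic subunit of glutamate-cysteine ligase that sets the pace of glutathione synthesis, had 43.2 and 50.8 against 65.5 and 67.5 CPM (log2 fold change -0.50 ± 0.18 SE, edgeR adjusted p = 0.124). Gclm, its modifier subunit, had 48.0 and 50.6 against 73.0 and 61.1 CPM (-0.44 ± 0.18 SE, adjusted p = 0.158). Both subunits thus stood about as far apart between the groups. Gss, which adds glycine to complete glutathione, had 16.4 and 23.6 against 24.5 and 29.4 CPM (-0.43 ± 0.28 SE, adjusted p = 0.320). Gsr, which regenerates reduced glutathione with NADPH, had 42.9 and 43.4 against 91.9 and 56.2 CPM. The controls differed by 1.64-fold for Gsr, and its log2 fold change of -0.78 ± 0.28 SE did not pass (edgeR adjusted p = 0.128). Gclm and Gss share exon bases with neighbouring genes.

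The regulators of the NRF2 axis showed no called difference. Nfe2l2 had 168 and 171 CPM with INK128, between the 257 and 134 CPM of the controls, which were 1.91-fold apart. Its log2 fold change was -0.20 and turned to 0.34 without control replicate 1. Keap1, the sensor that restrains NRF2, had 93.1 and 76.6 against 67.9 and 71.2 CPM, a narrow separation (log2 fold change 0.29, edgeR adjusted p = 0.309). Hmox1, the inducible haem oxygenase, had 65.9 and 86.5 against 43.4 and 62.2 CPM (0.53, adjusted p = 0.219), and its direction turned with length offsets (-0.08). Nqo1, a quinone reductase much used as a readout of NRF2, had the fewest counts of the members, at 7.68 to 9.57 CPM with overlapping groups. In a wider fit that took in 17631 genes (mean CPM over 1), its log2 fold change was -0.06 ± 0.31 SE (edgeR adjusted p = 0.910).

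Antioxidant response elements were looked for as the letters TGACNNNGC on either strand in the 250 bases before annotated gene starts (RefSeq, GRCm38.p6). They were found in at least 1 window of 6 of the 29 members with a start in the table (20.7%) and of 11.5% of all 27025 genes, as well as in 10.2% of all 32851 windows. The matches of 5 members are shown because they set genes with higher and lower values with INK128 side by side, each read 5′ to 3′ along the gene with the match in capitals, on either strand.
Sod1, chr16:90220690-90220730, plus strand: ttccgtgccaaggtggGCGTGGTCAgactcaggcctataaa
Prdx1, chr4:116685450-116685490, plus strand: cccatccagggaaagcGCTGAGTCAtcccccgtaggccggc
Nfe2l2, chr2:75704879-75704913, minus strand: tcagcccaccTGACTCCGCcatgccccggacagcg
Gclm, chr3:122245407-122245447, plus strand: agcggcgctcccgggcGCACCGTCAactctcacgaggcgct
Txnrd1, chr10:82859098-82859138, plus strand: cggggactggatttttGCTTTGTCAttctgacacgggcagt
A match was present both before genes with higher values in the INK128 libraries (Sod1 and Prdx1) and before genes with lower ones (Gclm and Txnrd1), as well as before Nfe2l2, whose groups overlapped. The sixth member was Mt2. A match describes letters in this window and is not evidence of binding.

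Metallothioneins are small cysteine-rich proteins that bind zinc and copper and scavenge oxidants. Both members, Mt1 and Mt2, were lower in both INK128 libraries than in both controls, as were 34.0% of all tested genes. Mt3, read in a related list, went the other way without a call. It had 43.7 and 61.3 CPM with INK128 against 38.9 and 6.79 CPM (log2 fold change 1.2). Mt2 (chromosome 8, 94172664 to 94173568, plus strand) had 14.3 and 12.4 CPM with INK128 and 49.1 and 37.5 CPM in the controls. No library of one group reached the other. It fell 3.25-fold, from a mean of 43.3 ± 8.21 CPM in the controls to 13.3 ± 1.31 CPM with INK128 (SD over 2 libraries; log2 fold change -1.70 ± 0.25 SE, edgeR adjusted p = 0.0464). Leaving out each library in turn gave -1.88 to -1.49. Mt1, its neighbour on chromosome 8 (94179082 to 94180327, plus strand), had 77.2 and 73.8 against 121 and 96.9 CPM. The groups were separate here too, but the log2 fold change of -0.53 ± 0.19 SE was not called (edgeR adjusted p = 0.123). The Mt2 value has a limit: 432 of its 588 exon bases lie on the antisense gene Gm45774, and the counts of the genes differed by at most 1 in each library (266, 270, 1110 and 890 for Mt2). Which strand the reads came from cannot be told apart. Metallothioneins are expressed in kidney tubules, and the kidney markers, with summed levels of 171 and 295 CPM against 1263 and 2268, moved the same way, and their part in the Mt2 and Mt1 values was not tested.

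Metallothionein promoters are known for metal response elements, the binding sites of MTF1. Matches to TGCGCNC or TGCACNC on either strand occurred in at least 1 window of 9 of the 29 members (31.0%) and of 23.8% of all genes, and 1.46% of all genes had a window with 3 or more matches. Mt2 had 3, and its window is given because it carries both kinds of element, in the order metal, metal, antioxidant and metal response element in capitals.
Mt2, chr8:94172368-94172617, plus strand: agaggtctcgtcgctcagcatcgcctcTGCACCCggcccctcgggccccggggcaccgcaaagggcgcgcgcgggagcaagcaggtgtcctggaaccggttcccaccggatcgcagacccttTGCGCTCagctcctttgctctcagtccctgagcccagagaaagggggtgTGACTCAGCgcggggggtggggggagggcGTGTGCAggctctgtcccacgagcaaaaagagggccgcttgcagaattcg
Mt1, which shares the direction of Mt2 without a call, had 1 match in the window before its annotated RefSeq start.

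The glutathione transferases, which join glutathione to electrophiles and lipid aldehydes, held no edgeR call. Gstp1 had 134 and 139 CPM with INK128 and 77.4 and 60.5 CPM in the controls. Its mean was 1.97-fold higher (log2 fold change 0.98 ± 0.20 SE), just beyond the threshold at an edgeR adjusted p of 0.0526, and DESeq2 called it. The near-identical Gstp2 was at 2.57 to 7.18 CPM, so reads of the pair may have been exchanged. For the other two genes the controls enclosed the INK128 values. Gstm1 was at 1450 CPM in the first control and at only 431 CPM in replicate 3, 3.37-fold apart, with 899 and 1242 CPM with INK128. Gsta4 had 178 and 70.3 CPM in the same controls, 2.54-fold apart, and a mean of 130.0 ± 2.72 CPM (SD, n = 2) with INK128. For both, leaving out 1 control changed the sign of the log2 fold change: from -0.44 to 1.31 for Gstm1 and from -0.46 to 0.89 for Gsta4.

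**Figure D2:**
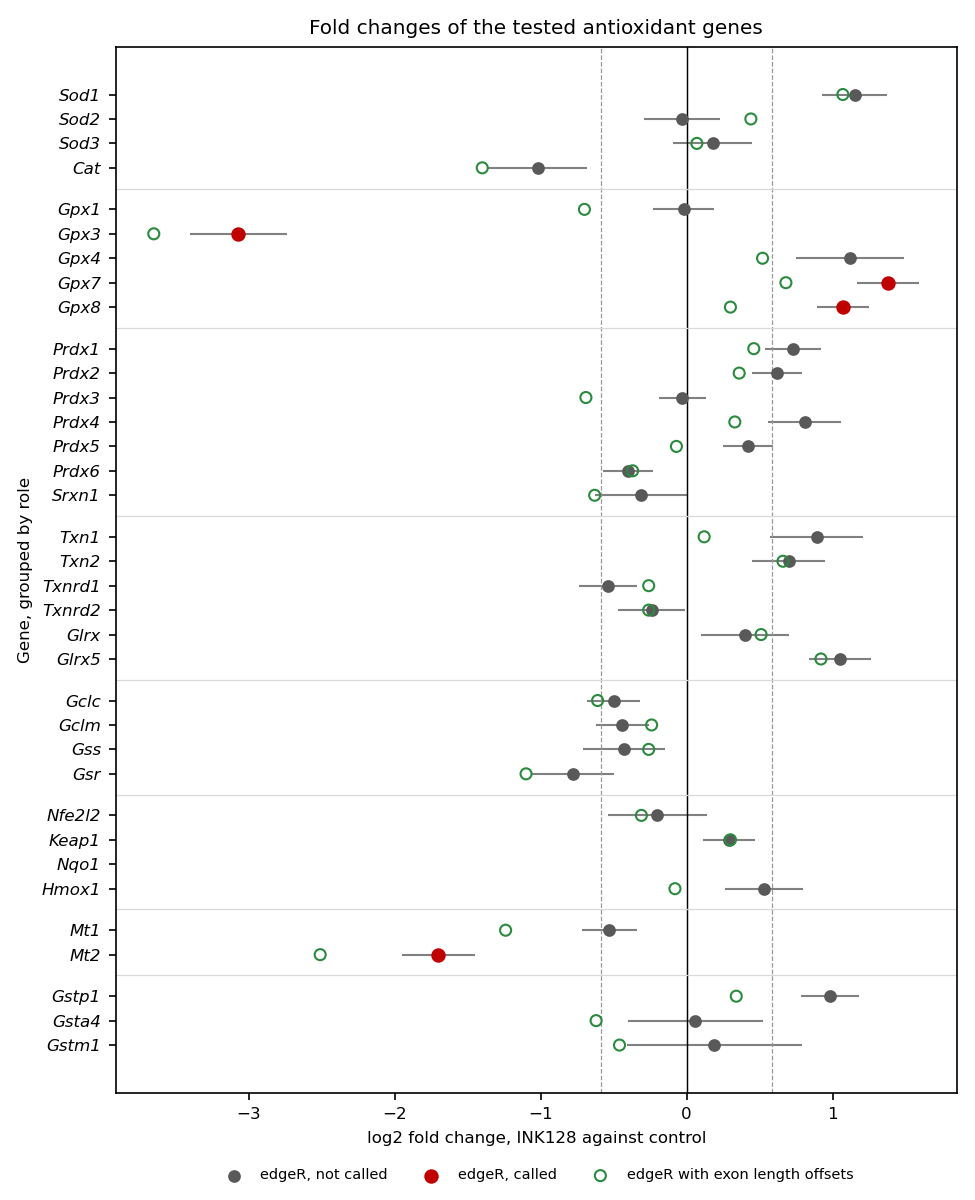
Points give the log2 fold change of INK128 against control for the 34 tested genes, with bars of 1 SE from edgeR (n = 2 per group), red for the 4 called genes, open green circles for the fit with exon length offsets, and dashed lines at a fold change of 1.5 (Nqo1 was not tested and its row is empty). Gpx3 at -3.07 and Mt2 at -1.70 lie apart on the left, and the green circles of Gpx7 and Gpx8 stand closer to 0 than their red points.

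Replicates of the antioxidant genes were closer with INK128 than in the controls. The controls were more than 1.5-fold apart for 9 of the 35 members (31.4% of tested genes), against 3 members for the INK128 libraries (5.24%). The 9 genes were Gstm1, Gsta4, Nfe2l2, Cat, Srxn1, Gsr, Glrx, Sod3 and Sod2, and the 3 were Gpx4, Gpx3 and Txn1. Control replicate 3, with a low sum of oocyte markers and a high sum of steroidogenic ones, had the higher value of the 2 controls for Cat, Srxn1 and Sod2. It had the lower value for the other 6. In the 4 called genes, whose call itself requires a small spread, the controls were 1.17-fold (Gpx3), 1.26-fold (Gpx7), 1.18-fold (Gpx8) and 1.31-fold (Mt2) apart, and the INK128 libraries 1.68-fold apart for Gpx3. With each library left out in turn, Gpx7 ranged from 1.22 to 1.56 and Gpx8 from 0.95 to 1.19 on the log2 scale, beside the ranges of Gpx3 and Mt2 given above.

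Fold changes were related to exon length in these libraries. This length joins all annotated exons of a gene (3970 bases for Sod1). It can exceed the length of the transcript expressed, so the offsets need not match that transcript. Across all tested genes the log2 fold change fell with the exon length (Spearman rho -0.465 across 11700 genes, which are not independent), and the median was 0.71 for genes of at most 1000 bases and -0.55 for those above 8000 bases. The antioxidant genes were shorter, with a median of 2754 bases against 4468 for all tested genes. The 12 members of 1000 to 2000 bases had a median log2 fold change of 0.36 where all genes of that length had 0.63, the 12 members of 2000 to 4000 bases had 0.30 against 0.25, and the 8 members of 4000 to 8000 bases had -0.32 against -0.18. With length offsets the rho of all genes was 0.00719, and the member median moved from 0.12 to -0.16. No gene was then called, with 3140 genes and 11 members at an unadjusted p below 0.05. The log2 fold changes of Gpx3 and Mt2 became larger in size (-3.65 and -2.51), those of Sod1 and Glrx5 stayed close (1.07 and 0.92), and those of Gstp1, Gpx4 and Txn1 shrank, to 0.34 for Gstp1 and 0.52 for Gpx4. Whether the relation to length is technical was not tested.

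**Figure D3:**
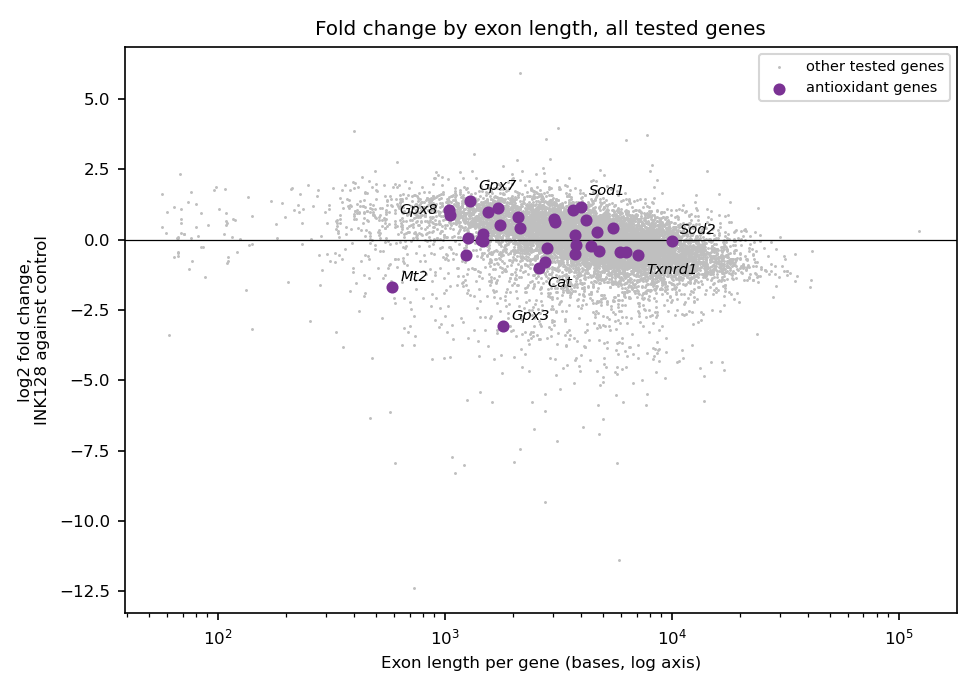
Each grey dot is 1 tested gene, placed by its exon length (bases, log axis) and its log2 fold change of INK128 against control, with the antioxidant genes in purple. The cloud slopes downward to the right (rho -0.465), Gpx7 lies within its short, upper part, and Gpx3 and Mt2 lie well below the genes of their length.

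The genes around these systems were read from 8 further lists, in which edgeR called 8 genes (6.37% of all tested genes were called in either direction). The medians given cover only the genes that passed the mean CPM limit, some of them only through the controls, and support no direction of a list. The DESeq2 counts of each list stand beside 13.6% of all tested genes called higher by DESeq2 and 15.1% called lower. Of 12 tested partners in NRF2 control, edgeR called none, DESeq2 called 1 higher and 1 lower, and the median log2 fold change was -0.25. The largest values were -0.96 for Ivns1abp, which encodes a kelch protein (132 and 168 against 319 and 265 CPM, edgeR adjusted p = 0.0614), and -0.95 for Bach1, which encodes a repressor that competes for antioxidant response elements (24.5 and 22.1 against 33.6 and 56.3 CPM, adjusted p = 0.109). Among 18 other NRF2 targets (median 0.05) 1 rose, Blvrb, which encodes biliverdin reductase B. It had 65.2 and 71.5 CPM with INK128 and 22.0 and 25.0 CPM in the controls (log2 fold change 1.54 ± 0.19 SE, edgeR adjusted p = 0.0464, and 1.21 with length offsets). Of the 15 suppliers of NADPH (median -0.16) edgeR called none, where DESeq2 called 2 higher and 3 lower. Pgls of the pentose phosphate pathway was at 1.32 and the folate enzyme gene Aldh1l1 at -1.68. Of 16 other glutathione transferases (median 0.11) edgeR again called none and DESeq2 called 3 higher and 1 lower. Gsta2, tested only through its control values (4.40 and 7.77 against 23.4 and 60.8 CPM), was at -2.79 and Gstm6 at -1.61 (-0.01 without control replicate 1, the one library above the rest). Among 29 other thiol redox genes (median 0.45) edgeR called none and DESeq2 called 5 higher and 2 lower, and Sesn2 was at -1.72 (-0.63 without control replicate 1) and Ero1l at -1.24. At an unadjusted p below 0.05 stood 36.4% of all tested genes.

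Other glutathione genes (10 tested, median 0.22) included 1 that fell, Ggt1, the surface enzyme that breaks down extracellular glutathione and is abundant in kidney tubules. It had 3.49 and 6.99 CPM with INK128 and 25.7 and 35.3 CPM in the controls (log2 fold change -2.54 ± 0.45 SE, edgeR adjusted p = 0.0489). Ggt1, and Atp7a below, passed the mean CPM limit only through the controls, so a lower value with INK128 was a condition of their being tested. The part of kidney transcripts was not tested here either. Genes that handle the metals of SOD1 and metallothionein had 4 of 13 tested genes called lower by edgeR, where 3.19% of all tested genes were, and none higher. DESeq2 called 2 higher and 6 lower, beside 13.6% and 15.1% of all tested genes. Of the 15 genes of the list, 5 lay above both controls in both INK128 libraries and 7 below, beside 34.5% and 34.0% of tested genes. Atp7a, which encodes the copper exporter of the secretory pathway, had 2.58 and 3.27 against 38.5 and 50.1 CPM (log2 fold change -3.92 ± 0.30 SE, edgeR adjusted p = 0.0464). Slc31a1, the gene of the copper importer, had 44.2 and 47.8 against 125 and 108 CPM (-1.34 ± 0.18 SE, adjusted p = 0.0464). The other two were the zinc transporter genes Slc30a1 (26.5 and 30.0 against 65.2 and 58.5 CPM) and Slc39a10 (40.4 and 38.8 against 83.5 and 79.1 CPM), named after their values were seen.

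Among 12 tested genes of oxidant sources, some of which passed the mean CPM limit only through the controls, 1 rose and 1 fell. Cyba, which encodes the p22phox subunit shared by NADPH oxidases, had 134 and 154 against 69.0 and 74.9 CPM (log2 fold change 1.0 ± 0.17 SE, edgeR adjusted p = 0.0487), but 0.23 with length offsets. Xdh, the gene of xanthine dehydrogenase, had 23.9 and 26.2 against 61.3 and 74.6 CPM (-1.44 ± 0.20 SE, adjusted p = 0.0464). DESeq2 called 38 genes over the 8 lists in place of 8, with 28.6% of all tested genes called.

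**Figure D4:**
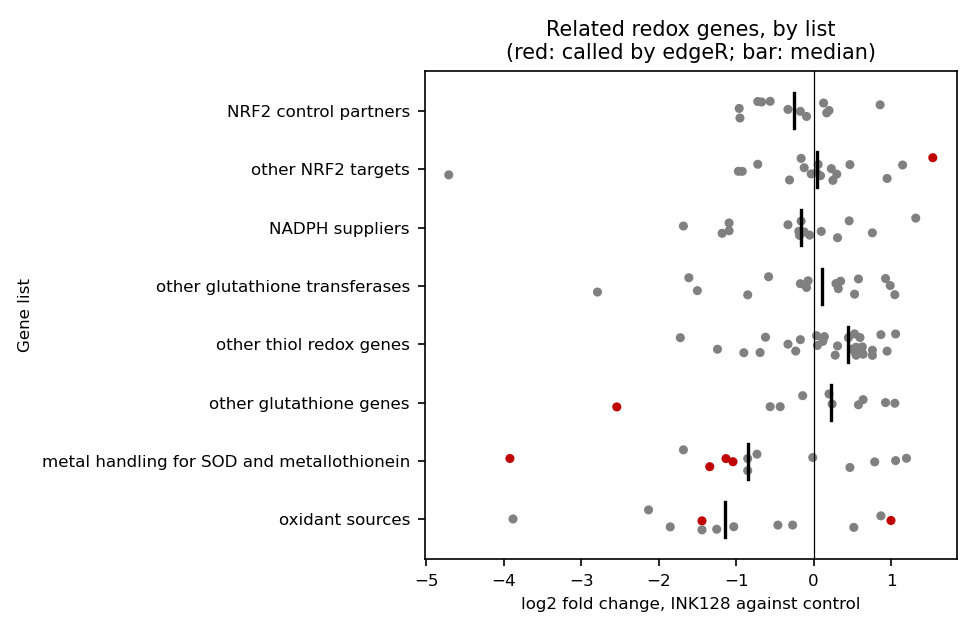
Each dot is the log2 fold change of 1 tested gene of INK128 against control in 8 lists of related redox genes, red where edgeR called it, and a black bar marks the median of each list. The red dots are Blvrb and Cyba on the right and Ggt1, Xdh and 4 metal transporter genes on the left. Low medians include genes that were tested only because the controls were high.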

How the data were processed

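According to the study's methods, the authors trimmed with Trimmomatic, used Hisat2 for alignment to mm10, and ran featureCounts with an annotation called RefGene. Versions and the strand setting are not given in the sources used here, and the library kit does not mark strand. The table deposited by the authors holds raw counts by gene symbol, neither normalised nor pooled, and the columns were matched to libraries by name.

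CPM were computed with TMM factors in edgeR 4.0.16 (R 4.3.3). The 11758 genes with a mean CPM above 10 were tested with edgeR's quasi-likelihood F-test, INK128 (n = 2) against control (n = 2), with Benjamini-Hochberg adjustment. Genes past 1.5-fold at an adjusted p below 0.05 were called, and each SE was the size of the log2 fold change over the square root of F. A single-gene permutation test cannot go below p = 0.333 here, and no set was tested. Alternatives were DESeq2 1.42.0 (the tool of the study's methods), limma voom 3.58.1, relative log expression factors, library totals, other limits on low counts, offsets per library from a loess fit (span 0.3) on log10 exon length (GENCODE M21), and each library left out. Members and lists were chosen with earlier results of these data known. Members called, past 1.5-fold or without overlap were given per library. From each related list at most 2 called genes per direction were named, or, with none called, the 2 with the largest log2 fold change in size. Slc30a1, Slc39a10 and Mt3 were added after their values were seen. Floors of 3 counts cover counting error only. The tests were also tested on simulated counts.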

Additional observations from a re-analysis of the deposited data

How the results depend on the processing

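With 2 libraries per group the calls depended on the processing. The directions of the 4 called members, and of the called related genes Blvrb, Slc31a1, Cyba and Xdh, did not turn in any alternative run. Ggt1 and Atp7a cannot be read in this way, since a lower value with INK128 was a condition of their being tested. They also could not be in the fit with a CPM above 10 in all 4 libraries. The 749 genes called became 3367 with DESeq2, 3105 with at least 1 count, 1520 with a CPM above 10 in all 4 libraries, and 0 with limma voom, with a mean CPM above 1 and with length offsets, where 3979, 5797 and 3140 genes had an unadjusted p below 0.05. Leaving out each library gave 0 to 5387, where the library left alone is assumed to vary like the other group. Members called higher (2) numbered 9 with DESeq2, 6 with at least 1 count, 5 with the limit in all 4 libraries, 1 with library totals, 0 with voom, the mean CPM above 1 and length offsets, and 0 to 13 without single libraries. Members called lower (2) numbered 0 with voom, the mean CPM above 1 and length offsets, and 0 to 5 without single libraries. The member median of 0.12 was 0.21 with voom, 0.00 with library totals, which moved the median of all genes to -0.15, -0.16 with length offsets, and 0.00 to 0.31 without single libraries. The 8 called genes of related lists became 38 with DESeq2, 33 with at least 1 count, 17 with the limit in all 4 libraries, 0 with voom, the mean CPM above 1 and length offsets, and 0 to 59 without single libraries. Signs turned for members near 0: Sod2 (-0.03) was 0.02 with a mean CPM above 1, 0.01 with at least 1 count, 0.44 with length offsets and -0.30 to 0.30 without single libraries; Gpx1 (-0.02) was 0.03, 0.01 and -0.23 to 0.14 (not turned by offsets); Prdx3 (-0.03) was 0.03 and 0.01. Length offsets also turned Prdx5 to -0.07, Hmox1 to -0.08, Gsta4 to -0.62 and Gstm1 to -0.46, and library totals turned Gsta4 to -0.06. Without single libraries Sod3 ranged from -0.10 to 0.52, Srxn1 from -0.62 to 0.10, Nfe2l2 from -0.60 to 0.34, Gsta4 from -0.46 to 0.89 and Gstm1 from -0.44 to 1.31. The cause of these shifts was not tested. No paired analysis was possible because the groups share only replicate number 1. Depth limits genes near 3 counts.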
